A study of Homo sapiens with 2 samples.

Results

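Ca9-22 cells, an established human line of gingival squamous carcinoma, were compared after stable transduction with an empty vector (EV) or with a PTHLH vector, for a set of genes of Wnt signaling. PTHLH encodes parathyroid hormone-like hormone, a secreted ligand that acts on its own cell and on neighbouring cells. The 45 genes were chosen by name and role (ligands, receptors, antagonists, transducers, transcription factors and feedback targets), and the rule uses no measured value, though the choice was made with earlier results of these data known. Of these, 41 had a probe set paired with their symbol alone, out of 19775 genes measured in this way. WNT3 and FZD8 each share all of their 3 probe sets with another symbol, and WNT3A and TCF7 have no probe set named here, so these 4 genes are not analysed here.

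Both cultures were made by lentiviral infection and were kept under blasticidin, a drug that leaves only cells with the vector's resistance gene. Total RNA of 1 culture of each kind was hybridised to 1 Affymetrix U133 array each, and no promoter that drives the vector is named in the sources used here. With 1 array per condition there is no spread between cultures, no test and no p-value, and all differences compare 1 culture with 1 other culture. In RNA from whole cultures, fewer cells that express a gene and less RNA per cell cannot be told apart.

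Wnt ligands are secreted lipid-modified proteins that bind Frizzled receptors together with the co-receptors LRP5 or LRP6. In the canonical branch this stops the complex of APC, AXIN and GSK3 from marking beta-catenin for destruction, and beta-catenin then enters the nucleus and works with TCF/LEF factors on target genes. Other branches use ROR and Frizzled receptors to steer cell polarity and movement. In stratified squamous epithelium, Wnt ligands are made by the basal keratinocytes and act on progenitor growth.

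A label of the samples names another line, CX-1, and the gene RAB3C, while Ca9-22 and PTHLH are named by their titles, by their characteristics and in the methods. These were used here. CX-1 is a colon carcinoma line. The 8 squamous markers measured of 11 listed, such as KRT5 and SFN, were all above the median of all probe sets on both arrays, with intensities between 390.1 and 14704 with EV and between 447 and 14483 with PTHLH. The 11 colon markers, such as CDX2 and VIL1, reached at most 49.1 and 37.1, and 5 of them were above the medians. Of 8 fibroblast markers 4 were above the medians, and COL1A1 (2437 with EV, 1652 with PTHLH) made up nearly all of their summed level of 2561 and 1775. RAB3C had an intensity of 10.2 and 10.5, below the median of 19.5 with EV and 19.4 with PTHLH. PTHLH has no probe set named here and is not analysed, so its level was not used to check the labels.

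Most of the Wnt genes had nearly the same intensity on both arrays. By the brightest probe set of each gene, 2 of 41 genes were at least 1.5-fold lower with PTHLH and 0 were at least 1.5-fold higher. The 2 lower genes were FZD5, a Frizzled receptor, and WNT7A, a ligand. Over all genes, 3.52% were lower and 1.97% were higher by this rule, 5.49% in either direction, against 4.88% of the Wnt genes. The share of Wnt genes was thus near the background of all genes. The threshold of 1.5-fold is that of the study's own signature and corresponds to a log2 difference of 0.58. Differences are given throughout as the PTHLH array minus the EV array on the log2 scale of intensities.

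The median log2 difference over the 41 genes was 0, as it was over all genes. Of the 41 genes, 19 were above 0, 20 were below 0 and 2 were at 0. The middle 50% of the Wnt genes lay between -0.23 and 0.09, and that of all genes between -0.17 and 0.17. Of the 34 Wnt genes whose brightest probe set was above the median of at least 1 array, 2 (5.88%) were at least 1.5-fold changed, both lower. Of all genes of that kind 7.31% were changed, 4.74% lower and 2.57% higher. The other 7, WNT5A, WNT5B, FZD10, ROR1, ROR2, SFRP1 and WIF1, were below the median on both arrays.

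**Figure D1:**
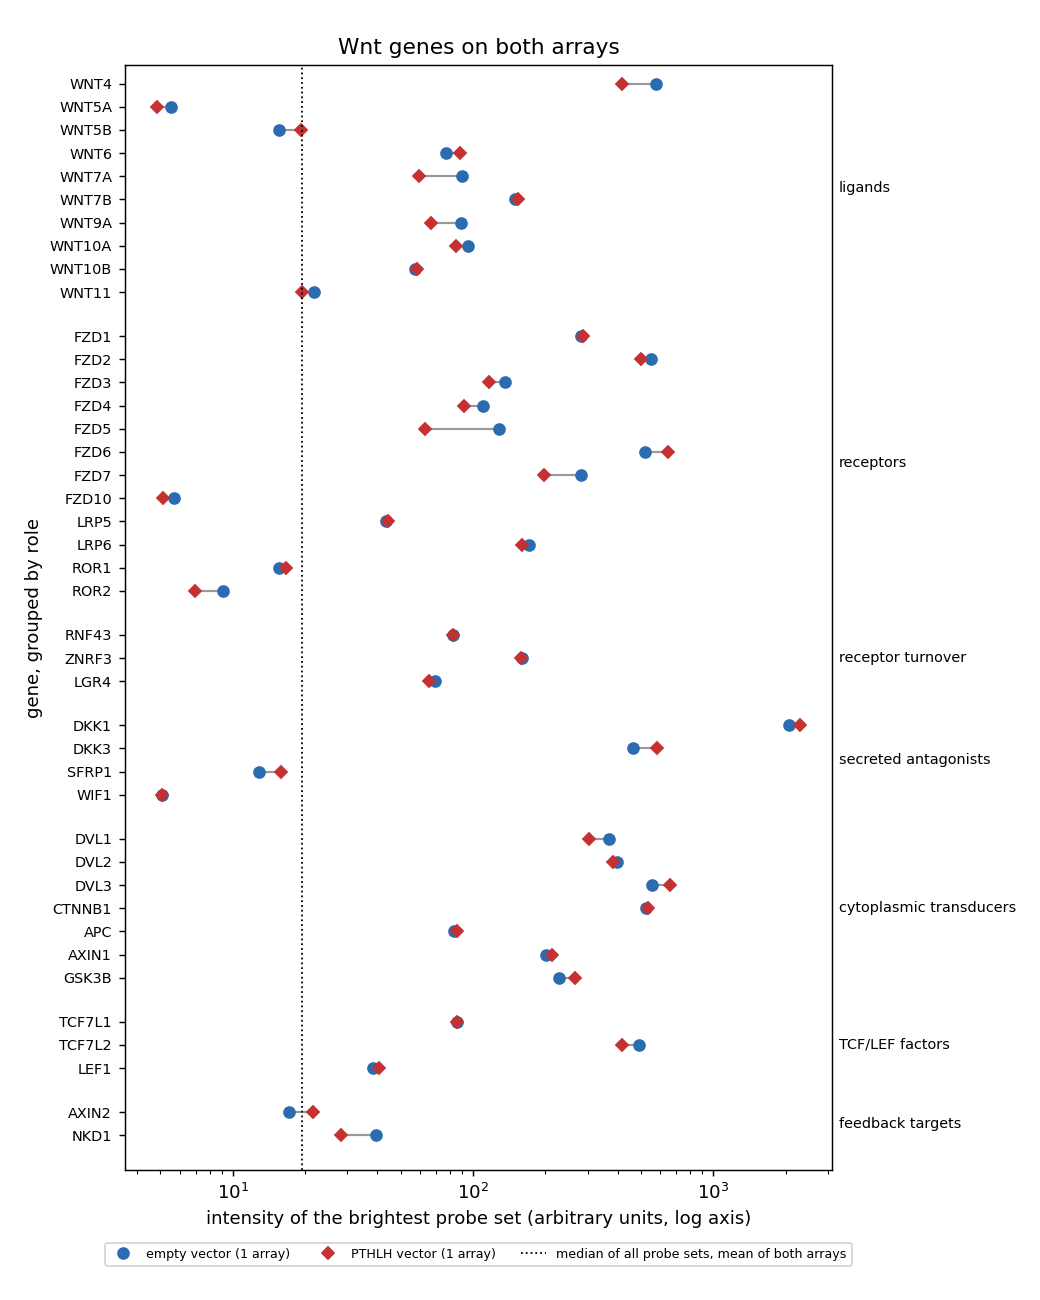
Intensity of the brightest probe set of each of the 41 Wnt genes, in arbitrary units on a log axis, grouped by role. Blue circles are the EV array and red diamonds the PTHLH array, with a grey line between them, and the dotted line is the median of all probe sets. FZD5 has the widest gap, from 128 to 63.3, and most other pairs nearly overlap.

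The internal measure of error was the agreement between different probe sets of one gene. In 16 Wnt genes the pair of brightest probe sets both lay above the medians of both arrays. The SD of a single log2 difference, taken from the gaps within these pairs, was 0.18, against 0.20 over 5594 genes of that kind. The pair had the same sign in 10 of the 16 genes. This spread covers differences between probes and not between cultures. The 41 genes held 101 probe sets, of which 3 were at least 1.5-fold lower and 1 was at least 1.5-fold higher. That is 3.96% in either direction, against 4.78% of all probe sets with 1 symbol. On 8 of these 101 probe sets (7.92%) the deposited values of both arrays were identical, as on 6.16% of all probe sets, so a difference of exactly 0 stands for an equal deposited value.

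FZD5, the Frizzled receptor best known from gut and eye development, had an intensity of 128 with EV and 63.3 with PTHLH, a log2 difference of -1.02. Its other probe set went from 109 to 51.0, a difference of -1.10. Both probe sets of FZD5 were thus lower with PTHLH by about the same amount. This pair is among those that gave the SD between probe sets, so that SD is no separate check of their gap. It was the only member with more than 1 probe set past 1.5-fold. FZD5 and WNT7A, as well as LGR4 and TCF7, also stand in the study's own pathway lists, which were drawn from these arrays at this threshold, so their presence here is not independent evidence of a direction.

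WNT7A, a ligand made by many epithelia, had an intensity of 89.7 with EV and 59.3 with PTHLH, a log2 difference of -0.60. It has a single probe set, so no second probe set bears on it. The difference lay just past the threshold of 0.58, and after quantile normalization of both arrays it was -0.575, which is inside 1.5-fold. FZD7, a Frizzled receptor common in progenitor cells, lay just inside the threshold, from 282 to 197, a difference of -0.52. Its other probe set went from 191 to 131, a difference of -0.55. The pair of FZD7 therefore differed from 0 by more than the SD between probe sets, in the same direction, without reaching 1.5-fold.

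The stretch before the start of both lower genes is shown because FZD5 and WNT7A were the members past the threshold. Each is read 5′ to 3′ on the gene's own strand and ends at the base before the RefSeq transcription start, on the minus strand of build GRCh38.p14. Capitals mark GGGCGG or its reverse complement, the core of the GC box bound by SP1 family factors, and runs may overlap.
FZD5, chr2:207769907-207770156: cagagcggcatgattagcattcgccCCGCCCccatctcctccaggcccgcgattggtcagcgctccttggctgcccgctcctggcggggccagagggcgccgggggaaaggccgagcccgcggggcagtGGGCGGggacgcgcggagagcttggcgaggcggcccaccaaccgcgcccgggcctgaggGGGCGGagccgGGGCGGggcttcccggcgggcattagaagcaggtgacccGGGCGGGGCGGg
WNT7A, chr3:13880072-13880321: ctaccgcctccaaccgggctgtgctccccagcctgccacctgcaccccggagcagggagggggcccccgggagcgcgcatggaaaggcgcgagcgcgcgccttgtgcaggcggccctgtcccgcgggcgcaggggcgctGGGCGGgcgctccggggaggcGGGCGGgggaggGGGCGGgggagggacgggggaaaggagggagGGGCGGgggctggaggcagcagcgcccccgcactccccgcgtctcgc
The FZD5 stretch held these letters 6 times and the WNT7A stretch 4 times. They were looked for after the sequences had been seen. They occurred in 24 of the 33 promoter windows found for 27 of the 41 genes (72.7%), and in 44.95% of all 35116 windows of the table. A window runs from 250 bases before to 50 after a start site, and a gene can have more than 1.

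The letters of 4 other motifs were searched on both strands of the same windows. CTTTGAT, the core bound by TCF/LEF factors, was in 0 of the 33 windows and in 2.62% of all windows. TGTGGT, the core bound by RUNX factors, was in 6 of the 33 (18.2%), against 13.1% of all. The 6 genes were FZD5, LEF1, LGR4, RNF43, WNT5A and WNT5B, of which FZD5 alone was past 1.5-fold on its brightest probe set. In FZD5 the letters start 33 bases into the transcript, shown here in capitals because the study concerns RUNX2.
FZD5, chr2:207769859-207769884: gtgagtccgcTGTGGTcgccgccgcg
TGACGTCA, the cAMP response element, was in 1 window, that of DVL1, against 1.85% of all windows. TGANTCA, the AP-1 site, was in 1 window, that of RNF43, against 7.71% of all. A match of letters is a description of the sequence only.

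Of the 10 Wnt ligands measured, WNT7A was at least 1.5-fold lower and the other 9 lay within 1.5-fold. The median log2 difference of the ligands was -0.17, with 4 above 0 and 6 below. WNT4, a ligand that signals in kidney, gonad and epithelium, had an intensity of 574 with EV and 416 with PTHLH, a difference of -0.46. Its other probe sets, both above the medians, differed by 0.13 and 0.01, so the lower level was seen by the brightest probe set alone. WNT9A, a ligand of joint and skeletal development, went from 89.2 to 67.1, a difference of -0.41, while its dim second probe set was identical on both arrays at 13.1.

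WNT10A, a ligand needed for teeth, hair and skin, had an intensity of 95.7 with EV and 85.2 with PTHLH, and WNT10B, its close relative, 57.1 and 58.5. WNT7B, the near relative of WNT7A, had 149.8 and 154 on its brightest probe set (0.04) and 40.6 and 34.5 on the other (-0.23). WNT6 had 77.5 and 88.6 (0.19), and its 3 other probe sets, all dim, lay between -0.32 and 0.17. Both probe sets of WNT10A were slightly lower, at -0.17 and, on the dim one, -0.20. WNT10B stayed close to 0, and WNT7B and WNT6 had probe sets of either sign.

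WNT11, a ligand of the polarity branch, had 21.8 and 19.3, near the medians. WNT5A, the main ligand of the polarity branch, had 5.50 and 4.83 and was below the medians, as was WNT5B with 15.6 and 19.3. The ligands that lead the noncanonical branch thus gave little or no signal above the middle of either array. For these dim probe sets a log2 difference carries little information, and WNT5B had 0.31 on its brightest probe set but -0.15 on its dimmest.

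Of the 8 Frizzled receptors measured, FZD5 was at least 1.5-fold lower, 7 lay within 1.5-fold, and the median was -0.19 with 2 above 0 and 6 below. FZD6, a receptor that orients skin and hair, was the highest of them, from 520.4 to 645 (0.31), by its only probe set. FZD1 had 282 and 288 (0.03). FZD4, also the receptor for norrin in the retina, had 109.5 and 91.7 (-0.26).

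FZD2 had 551 and 497 (-0.15) on its brightest probe set and 112 and 152 (0.43) on the other, which is bright as well. FZD3, a receptor of axon guidance, had 136 and 116 (-0.23), and its other probe sets lay between -0.28 and 0.15. The probe sets of these 2 receptors did not share a sign, in contrast to those of FZD5 and FZD7. FZD10 was dim, with 5.69 and 5.12.

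The co-receptors of the canonical branch were nearly level. LRP6 had an intensity of 170.2 with EV and 160.1 with PTHLH (-0.09), with its other probe sets at -0.04 and -0.04. LRP5 had 43.6 and 44.3 (0.02), and 0.02 by its second probe set. All 5 probe sets of LRP5 and LRP6 lay within 0.09 of 0. The receptor tyrosine kinases of the noncanonical branch, ROR1 (15.6 and 16.7) and ROR2 (9.13 and 6.97), were below the medians on both arrays.

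RNF43 and ZNRF3 are membrane ubiquitin ligases that remove Frizzled receptors from the surface and are themselves targets of the pathway. Their single probe sets had equal or nearly equal deposited values on both arrays. RNF43 had 82.2 on each, an identical deposited value, and ZNRF3 had 159.8 and 158.7 (-0.01). LGR4, the R-spondin receptor that holds these ligases back, had 69.7 and 65.8 (-0.08). Its dimmest probe set had 6.85 and 11.9, a log2 difference of 0.80, which is the single member probe set at least 1.5-fold higher and lies below the medians of both arrays. Where a gene was taken at its most changed probe set, LGR4 counted as higher, and 1 Wnt gene was higher and 2 were lower, against 8.46% of all genes in either direction.

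**Figure D2:**
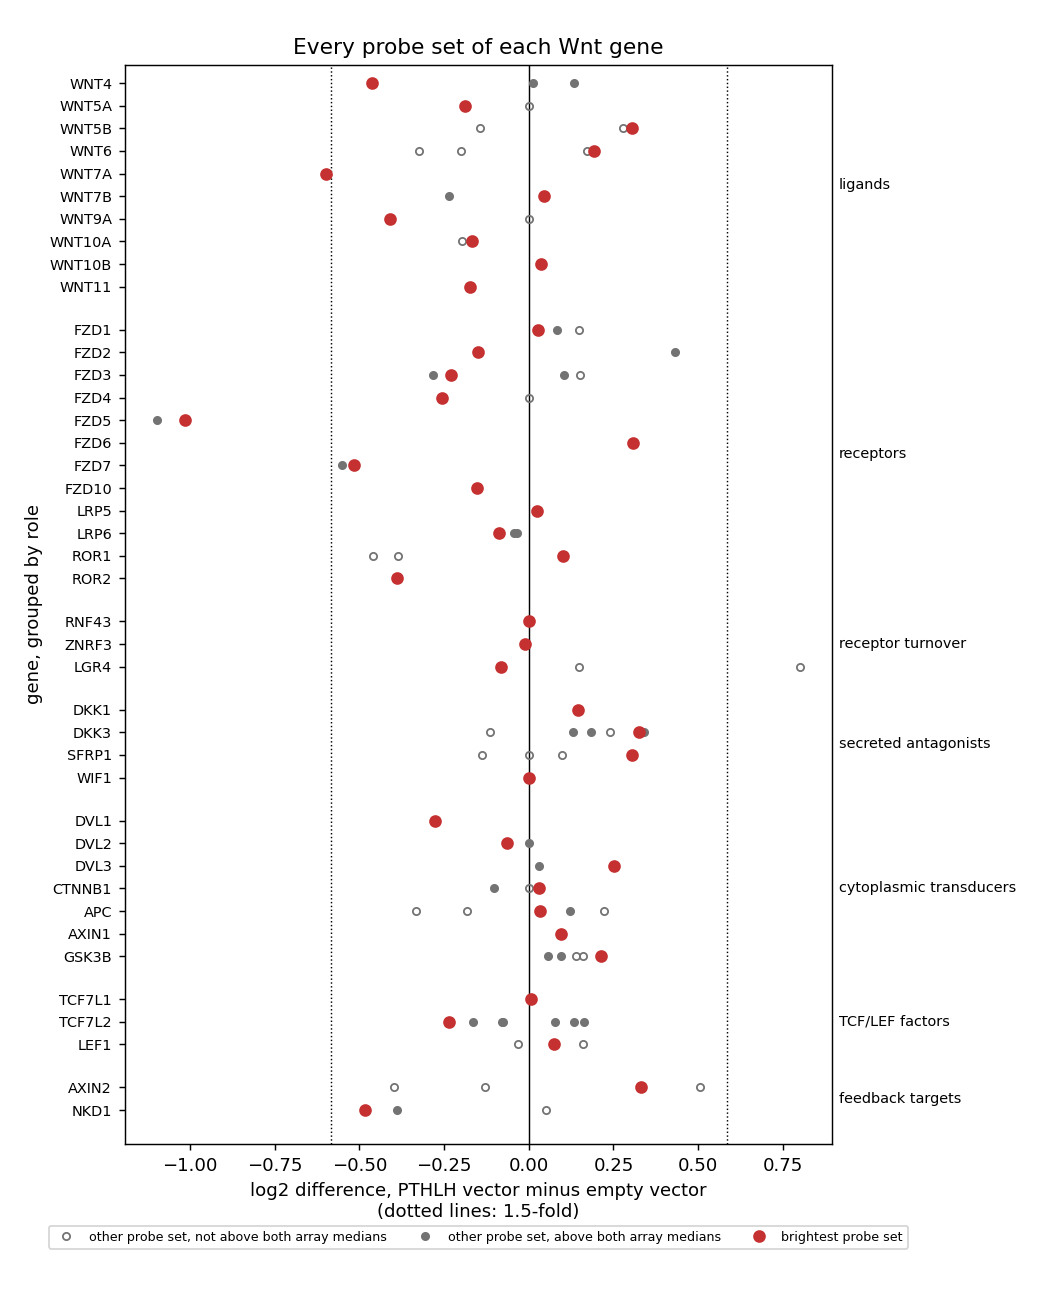
Log2 difference, PTHLH array minus EV array, for each of the 101 probe sets of the 41 Wnt genes, grouped by role, with 1.5-fold as dotted lines. Red points are the brightest probe set of a gene, filled grey points other probe sets above both array medians and open points the remaining ones. The pairs of FZD5 (-1.02 and -1.10) and FZD7 (-0.52 and -0.55) lie together on the left, while those of FZD2 lie on either side of 0 and the dim probe set of LGR4 stands alone at 0.80.

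By the brightest probe set, the secreted antagonists were level or slightly higher with PTHLH, all within 1.5-fold. Only DKK3 had several probe sets above the medians to bear this out. DKK1, which blocks LRP5 and LRP6 and is a target of beta-catenin, had an intensity of 2073 with EV and 2290.4 with PTHLH (0.14), by its only probe set. DKK3, a relative of DKK1 with less clear ties to the receptors, had 465 and 583 (0.33). All 4 of its probe sets above the medians were higher, between 0.13 and 0.34, and its 2 dim ones had 0.24 and -0.11. SFRP1, a soluble Frizzled-like decoy, had 12.9 and 15.9 (0.31), with 0.10, -0.14 and 0 by its other probe sets. WIF1, a secreted protein that binds Wnt ligands, had 5.08 on both arrays. SFRP1 and WIF1 were below the medians.

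The cytoplasmic transducers all lay within 1.5-fold, with a median of 0.03, 5 above 0 and 2 below. CTNNB1, which encodes beta-catenin, had an intensity of 522 with EV and 533 with PTHLH (0.03), and its second probe set had 41.6 and 38.7 (-0.10). The arrays measure its mRNA, whereas the pathway sets the amount and place of the protein. Of the destruction complex, APC had 83.5 and 85.5 (0.03), AXIN1 200.5 and 214 (0.09), and the kinase GSK3B 228 and 264 (0.21). All 5 probe sets of GSK3B were above 0, between 0.06 and 0.21.

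The Dishevelled proteins, which pass the signal from Frizzled to the complex, moved to either side of 0. DVL1 had 369 with EV and 305 with PTHLH (-0.28) and DVL3 had 556 and 662 (0.25). DVL2 lay between them with 399 and 381 (-0.07), and its second probe set was identical on both arrays at 96.9. DVL1 has a single probe set, and the other probe set of DVL3 had 0.03, so neither difference has a second probe set of the same size.

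The TCF/LEF factors bind DNA and recruit beta-catenin, and all 3 measured lay within 1.5-fold. TCF7L2, the factor common in epithelia, had an intensity of 492 with EV and 417 with PTHLH (-0.24). Its 6 other probe sets, all above the medians, lay between -0.17 and 0.16, so its probe sets did not share a sign. TCF7L1, often a repressor in keratinocyte stem cells, had 85.4 and 85.9 (0.01), and LEF1, the factor tied to hair follicles, had 38.5 and 40.5 (0.07).

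AXIN2 and NKD1 are feedback inhibitors that canonical signaling switches on in many tissues. AXIN2 had an intensity of 17.1 with EV and 21.5 with PTHLH (0.33), above the median with PTHLH only, and its other probe sets, all dim, had -0.40, 0.51 and -0.13. NKD1, which binds Dishevelled, had 39.6 and 28.3 (-0.48), with -0.39 and 0.05 by its other probe sets. Both lay within 1.5-fold, on opposite sides of 0. With RNF43 and ZNRF3 at 0 and -0.01 and DKK1 at 0.14, the feedback targets among the members had no common direction.

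The other genes of the pathway give the setting of these values. Of 102 measured genes of a wider Wnt list, 5 were at least 1.5-fold higher and 6 at least 1.5-fold lower with PTHLH, with a median of 0.03. That is 10.8% in either direction, against 5.49% of all genes. Among genes above the median of at least 1 array it was 13.0% against 7.31%. The list was chosen with earlier results of these data known, and most of its changed genes stand in the study's pathway lists. The higher share is therefore not independent evidence. Of 21 candidate target genes, 2 were higher and 3 lower. Of 19 genes of the polarity and other noncanonical branches, 1 was higher and 2 were lower. Of 18 other cytoplasmic transducers and 9 other receptors, 0 were changed in either direction.

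PRICKLE1, a core protein of planar cell polarity, had an intensity of 202 with EV and 404 with PTHLH, 2.0-fold higher. Of its other probe sets, 2 had log2 differences of 0.86 and 0.85, and 1, also above the medians, had -0.53. CTHRC1, a secreted protein that favours the polarity branch, had 70.6 and 39.6 (-0.83), by its only probe set. The kinase PRKCA had 241 and 127 (-0.92), with its other probe sets between -0.39 and 0.08. The changed genes placed in this group thus lay on either side of 0. The study's own planar polarity list holds PRICKLE1 and CTHRC1, and also FZD5, LGR4, WNT7A, WNT2B, JUNB and JUN. Its scores for that pathway and for Wnt/beta-catenin signaling, drawn from these same arrays, were both negative.

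WNT2B, a ligand outside the 45, had an intensity of 44.2 with EV and 24.1 with PTHLH (-0.87), and 33.1 and 15.7 (-1.07) by its second probe set. Its 2 dimmest probe sets, below the medians, had -0.09 and -0.20. WNT7A and WNT2B were thus the ligands past the threshold on their brightest probe set, both lower with PTHLH. Among nuclear cofactors CREBBP, an acetyltransferase used by many factors, was 1.64-fold higher (392 to 641), with its other probe sets between 0.08 and 0.47.

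Of the candidate targets, ID2, an inhibitor of helix-loop-helix factors, had an intensity of 76.4 with EV and 165 with PTHLH (1.11), and 0.76 by its second probe set. The cyclin gene CCND1 had 159 and 245 (0.62), and 0.66 by its second probe set. JUN had 650 and 252 (-1.37), with its other probe sets between -1.56 and -0.42, and VEGFA had 478 and 270.4 (-0.82), with the others between -0.47 and -0.20. TNFRSF19, a receptor of the tumor necrosis factor family, had 24.1 and 10.5 (-1.20), where the second value is below the median, and its dim other probe sets had -0.29 and -0.44. MYC, the classical target in colon, had 374 and 411 (0.14), by its only probe set. CD44, a cell surface receptor for hyaluronan, had 1338 and 1343 by its brightest probe set, but the next 4 in brightness, all above the medians, differed by -0.36, -0.58, -0.52 and -0.58 on the log2 scale. The median over all 13 probe sets of CD44 was -0.32. BIRC5 lay on the other side, with 0.49 by its brightest probe set and all 4 probe sets between 0.22 and 0.84. Over the 21 candidate targets 13 were above 0 and 8 below. SOST, a secreted LRP antagonist, made the fifth higher gene, from 6.71 to 11.4, both below the medians. WNT2B, CTHRC1, PRICKLE1, PRKCA, CREBBP, CCND1, JUN, VEGFA, CD44 and BIRC5 likewise stand in the study's pathway lists.

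**Figure D3:**
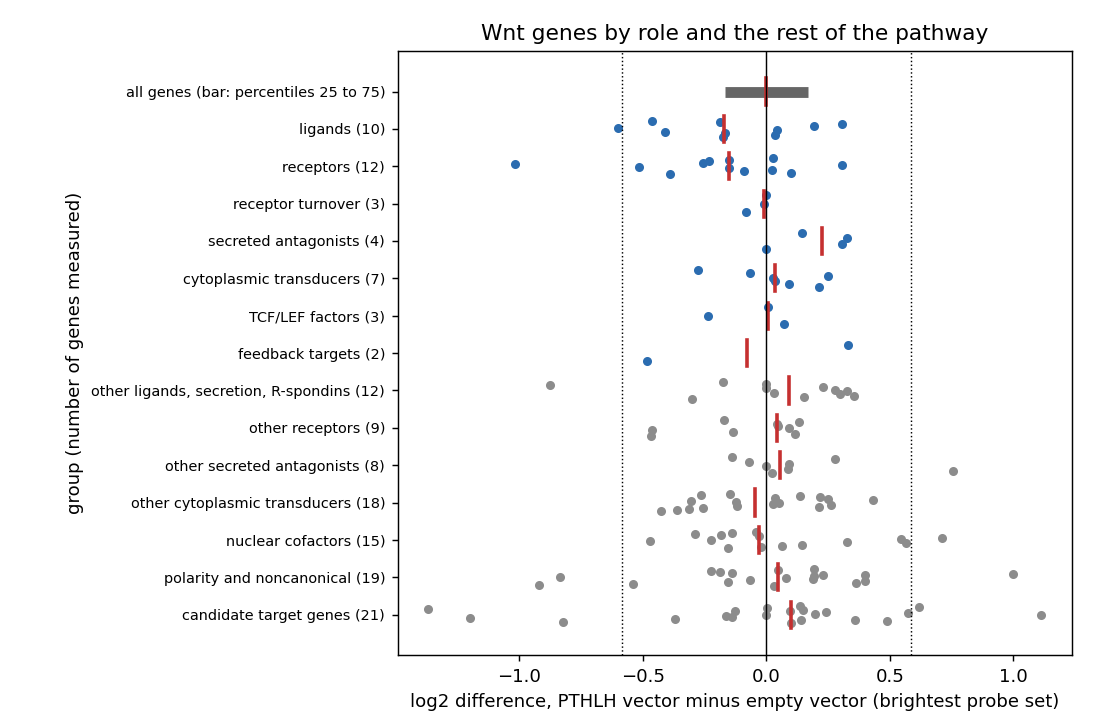
Log2 difference, PTHLH array minus EV array, by the brightest probe set, for the 41 Wnt genes by role (blue) and 102 other genes of the pathway by group (grey), with each group's median in red and 1.5-fold as dotted lines. The dark bar spans the middle 50% of all 19775 genes, from -0.17 to 0.17. Most points lie inside 1.5-fold. The genes past it are FZD5 and WNT7A among the members. In the wider list they are mainly candidate targets and genes of the polarity and other noncanonical branches.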

How the data were processed

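Total RNA of 2 samples, 1 with empty vector and 1 with PTHLH vector, was hybridised to Affymetrix U133 arrays, 1 per sample. The authors deposited linear intensities, 1 for each of 54675 probe sets. How they corrected, scaled and summarised them is not given in the sources used here. Groups followed the samples' characteristics. Intensities were turned to log2 and subtracted without further normalization. Probe sets were named through the platform annotation and current gene identifiers: 41097 had 1 symbol and were used, 1801 had several and 11777 are unnamed here. Each gene was read from its brightest probe set (highest mean log2 level).

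No test was run, because there is 1 array per condition, and their number limits the precision. Members and lists were chosen with earlier results of these data known. Every member is described. Of the wider list, genes at least 1.5-fold changed and above the median of 1 array were named by rule. SOST, MYC, CD44 and BIRC5 were chosen after their values were seen. Alternatives were quantile normalization, centring on brighter probe sets, the median or largest change over probe sets, leaving out probe sets with suffix x or s, leaving out dim genes, a floor at percentile 40 and a 2-fold threshold. The method was tested on simulated data with planted 2-fold changes and noise between probe sets. That simulation held no spread between cultures, so it does not bear on the limit of 1 array per condition. Promoter sequences are from RefSeq, GRCh38.p14. Python 3.11.15, pandas 2.3.3, numpy 2.4.6 and matplotlib 3.10.9 were used.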

Additional observations from a re-analysis of the deposited data

How the results depend on the processing

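FZD5 was at least 1.5-fold lower with PTHLH under each alternative run and at the 2-fold threshold. With quantile normalization 1 Wnt gene was lower, as WNT7A came to -0.575, just inside 1.5-fold, and at the 2-fold threshold 1 was lower. At the most changed probe set 1 Wnt gene was higher, and without probe sets of suffix x or s also 1, each time LGR4 through its dim probe set (0.80). For the 102 other pathway genes, the median over probe sets left 4 genes up and 2 down with PTHLH. Reading each gene at its most changed probe set put 8 genes past 1.5-fold upward and 8 downward. By that reading, 8.46% of the 19775 genes measured passed 1.5-fold. The 2-fold threshold kept 2 up and 2 down. No share of all genes is given here for quantile normalization, the median over probe sets, the suffix setting or the 2-fold threshold. Those counts therefore have no background beside them. The median over the Wnt genes stayed between -0.09 and 0. For single Wnt genes, the median over probe sets moved 8 of 41 differences by more than the SD between probe sets, the largest change 6, the floor 2, and quantile normalization or centring 0. Leaving out suffix x or s left 36 Wnt genes and moved 6 of them, among them AXIN2 (0.33 to -0.40) and WNT4 (-0.46 to 0.13). No paired analysis was possible because each group has 1 array.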
